A study of Rattus norvegicus and Bos taurus with 12 samples.

Results

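The transcription factors that specify and maintain the cardiac lineage were followed through both expression tables of the series. The 10 genes, chosen by symbol without regard to case, were Gata4, Gata6, Nkx2-5, Tbx5, Tbx20, Mef2a, Mef2c, Mef2d, Hand2 and Isl1. Of these, 4 were among the 7052 genes listed for adult rat ventricular myocytes (ARVM), namely Tbx20, Mef2a, Mef2d and Hand2. The 2115 genes listed for bovine cardiac fibroblasts (Cfib) held 3 of them, namely TBX20, MEF2A and ISL1. Tbx20 and Mef2a were the 2 listed in both tables. Gata4, Gata6, Nkx2-5, Tbx5 and Mef2c, 5 in all, were listed in neither. Both tables hold only genes that the authors had selected for a difference between their groups, so a gene that is not listed has no value here and cannot be said to have changed or to have stayed level.

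RNA-seq was performed on 12 libraries, 3 per group. The ARVM came from healthy adult Sprague Dawley rats and were either freshly isolated (libraries con4, con5 and con6) or kept for 7 days in medium conditioned by Cfib of calves with pulmonary hypertension (PH-CM, libraries ha2, ha209 and ha211). No ARVM cultured without PH-CM were sequenced in the libraries used here, so the effects of PH-CM and of the days in culture cannot be told apart. The Cfib were grown from the right ventricle of neonatal calves, either controls held at Denver altitude (CO, libraries 1 to 3) or calves with pulmonary hypertension after hypobaric hypoxia (PH, libraries 1 to 3), and were used at low passage after a period in serum-free medium. The sample labels name the treatment as serum from low or high altitude cows, which differs from this account in the paper. The Cfib libraries of a group are described as coming from separate animals. The median coefficient of variation was 4.78% among PH libraries and 12.4% among CO libraries. Whether the PH libraries vary as separate animals do was not tested, and the Cfib p-values rest on it. For ARVM neither source says whether each library was a separate animal, so the ARVM p-values measure the spread between libraries, which may be technical.

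The members work as a network. Gata4 and Gata6 are zinc finger factors, Nkx2-5 is a homeodomain factor, Tbx5 and Tbx20 are T-box factors, and the MADS-box factors Mef2a, Mef2c and Mef2d act together with them on genes of the contractile apparatus. Hand2 is a basic helix-loop-helix factor of the developing right ventricle, and Isl1 is a LIM-homeodomain factor that marks progenitors of the second heart field and later the sinoatrial node. Tbx20 is required in adult cardiomyocytes for the expression of genes of contraction and calcium handling. Several of these factors, Tbx20, Gata4 and Hand2 among them, are also expressed by fibroblasts of the heart, so their transcripts do not mark myocytes alone.

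The start regions of the 4 members listed in ARVM are shown because MEF2 and GATA factors are known to act on genes of this network, members included. Each run holds the 250 bases before the annotated start, 5′ to 3′ on the strand of the gene, from RefSeq on the GRCr8 rat assembly. The authors aligned to rn6, so no measured value was placed on these coordinates. Tbx20 lies at chr8:31534010-31534259 on the minus strand, Mef2a at chr1:130392163-130392412 on the minus strand, Mef2d at chr2:175904082-175904331 on the plus strand and Hand2 at chr16:37931489-37931738 on the minus strand. Capitals mark matches to the MEF2 consensus and to the GATA site AGATAA on either strand.
Tbx20: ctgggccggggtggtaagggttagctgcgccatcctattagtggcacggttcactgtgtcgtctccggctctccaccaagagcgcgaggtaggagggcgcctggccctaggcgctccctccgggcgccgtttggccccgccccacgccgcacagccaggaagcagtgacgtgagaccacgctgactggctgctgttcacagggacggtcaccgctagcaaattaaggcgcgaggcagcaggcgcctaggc
Mef2a: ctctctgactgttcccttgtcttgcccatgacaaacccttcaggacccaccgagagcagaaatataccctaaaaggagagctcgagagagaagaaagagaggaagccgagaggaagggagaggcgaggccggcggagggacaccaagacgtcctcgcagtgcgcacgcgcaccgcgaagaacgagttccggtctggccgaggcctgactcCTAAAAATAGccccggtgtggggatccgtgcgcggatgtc
Mef2d: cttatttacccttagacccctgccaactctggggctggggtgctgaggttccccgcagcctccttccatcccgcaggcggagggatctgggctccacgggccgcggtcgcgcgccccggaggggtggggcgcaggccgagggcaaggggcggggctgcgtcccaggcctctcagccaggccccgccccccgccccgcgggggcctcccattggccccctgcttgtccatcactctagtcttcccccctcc
Hand2: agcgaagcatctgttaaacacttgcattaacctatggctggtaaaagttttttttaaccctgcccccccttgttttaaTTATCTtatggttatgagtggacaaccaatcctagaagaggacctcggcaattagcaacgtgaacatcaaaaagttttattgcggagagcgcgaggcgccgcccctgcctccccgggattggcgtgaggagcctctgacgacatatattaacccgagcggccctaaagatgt
The Mef2a run held 1 match to the MEF2 consensus, from base 40 to base 31 before the start, a match that 2.96% of 33469 rat promoters of this length hold. It also held 2 matches to the T-box core GGTGT, which 36.6% of promoters hold. The Hand2 run held 1 AGATAA match, at bases 172 to 167 before the start, as 10.3% of promoters do. It held 2 matches to the E-box CANNTG, found in 65.5%, and 1 to the NK2 core AAGTG, found in 40.6%, which overlapped an E-box match. The runs of Tbx20 and Mef2d held none of these letters, which says nothing of factors bound elsewhere. Of the 10 members, 8 had a promoter in the table, and Gata4 and Mef2c did not.

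In ARVM kept in PH-CM, Tbx20 fell 2.14-fold and Mef2d fell 1.85-fold, while Mef2a rose 1.42-fold against freshly isolated ARVM. Hand2 was 1.23-fold higher without passing the test. These values are read counts divided by a size factor of the library, without correction for gene length, so levels of different genes are not compared in ARVM. Differences were tested with limma on log2(value + 1), the p-values were adjusted by the Benjamini-Hochberg method within each table, and the threshold was 0.05. By this test 3 of the 4 listed members were called, 1 higher and 2 lower in PH-CM. Among all listed genes 97.6% were called, 53.9% higher and 43.7% lower, and in 100% the values of the groups did not overlap, because the table was selected for a difference. The quasi-likelihood test of edgeR on the recovered reads called 96.6%, and of the members the same Tbx20, Mef2a and Mef2d. The share of members called is therefore not a result about the members, and their direction and size are given instead.

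Tbx20 measured 995, 1020 and 869 normalized counts in freshly isolated ARVM and 431, 472 and 442 in PH-CM. The groups were well apart, with the lowest freshly isolated library 1.84 times the highest PH-CM library. The means were 961 ± 81.1 and 448 ± 21.2 (SD, n = 3 libraries each). The log2 fold change was −1.10 (SE 0.09, 95% interval −1.32 to −0.88, limma adjusted p = 2.09e-05). The underlying reads numbered 629, 952 and 841 against 570, 547 and 522, which gives a counting error of 3.24% to 4.38% per library. The change was larger in size than that of 55.0% of the listed genes and so lay near the middle of the table.

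Mef2d, the MEF2 factor that in the adult heart acts in the response to stress, was the more variable of the members that fell. It measured 573, 899 and 927 normalized counts in freshly isolated ARVM and 485, 432 and 381 in PH-CM. Freshly isolated library con4 was low, though still 1.18 times the highest PH-CM library. The means were 799 ± 197 and 433 ± 52.0 (SD, n = 3 each). The log2 fold change was −0.86 (SE 0.19, 95% interval −1.31 to −0.41, limma adjusted p = 0.00346). Without freshly isolated library con4 it was −1.08. A test on unlogged values that let each group keep its own variance gave an adjusted p of 0.0782 over all listed genes and ended the call. It differs from limma in scale as well as in variance.

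Mef2a, a MEF2 factor tied to mitochondrial and contractile genes, went the other way. It measured 1350, 1181 and 1318 normalized counts in freshly isolated ARVM and 1668, 2058 and 1723 in PH-CM. The highest freshly isolated library stayed below the lowest PH-CM library, by a factor of 1.24. The means were 1283 ± 89.5 and 1816 ± 211.1 (SD, n = 3 each), and the log2 fold change was 0.50 (SE 0.10, 95% interval 0.27 to 0.72, limma adjusted p = 0.00162). This was a small change for the table, larger in size than that of 21.7% of the listed genes.

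The 2 listed MEF2 genes can also be given as a ratio within each library, which does not depend on library scaling. The ratio of Mef2a to Mef2d was 2.36, 1.31 and 1.42 in freshly isolated ARVM and 3.44, 4.76 and 4.52 in PH-CM. The mean was 1.70 ± 0.573 and 4.24 ± 0.704 (SD, n = 3 each), a difference of 1.36 on the log2 scale. Since neither gene overlapped between the groups and they moved in opposite directions, the higher ratio in every PH-CM library follows from the values above and is given as a description, with no test. Of 5 ratios considered, this was the 1 with both genes listed.

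Hand2 measured 208.9, 196 and 225 normalized counts in freshly isolated ARVM and 252, 270 and 254 in PH-CM. Every PH-CM library was above every freshly isolated library, the nearest pair by a factor of 1.12. The means were 210 ± 14.6 and 259 ± 9.97 (SD, n = 3 each). The log2 fold change of 0.30 (SE 0.14, 95% interval −0.02 to 0.62, limma adjusted p = 0.0629) did not pass the test, and 6.66% of listed genes changed less. These were 132 to 333 reads per library with counting errors of 5.48% to 8.70%. Of 14 alternatives, only the test on unlogged values with a variance per group called Hand2, at an adjusted p of 0.0246 over all listed genes.

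**Figure D1:**
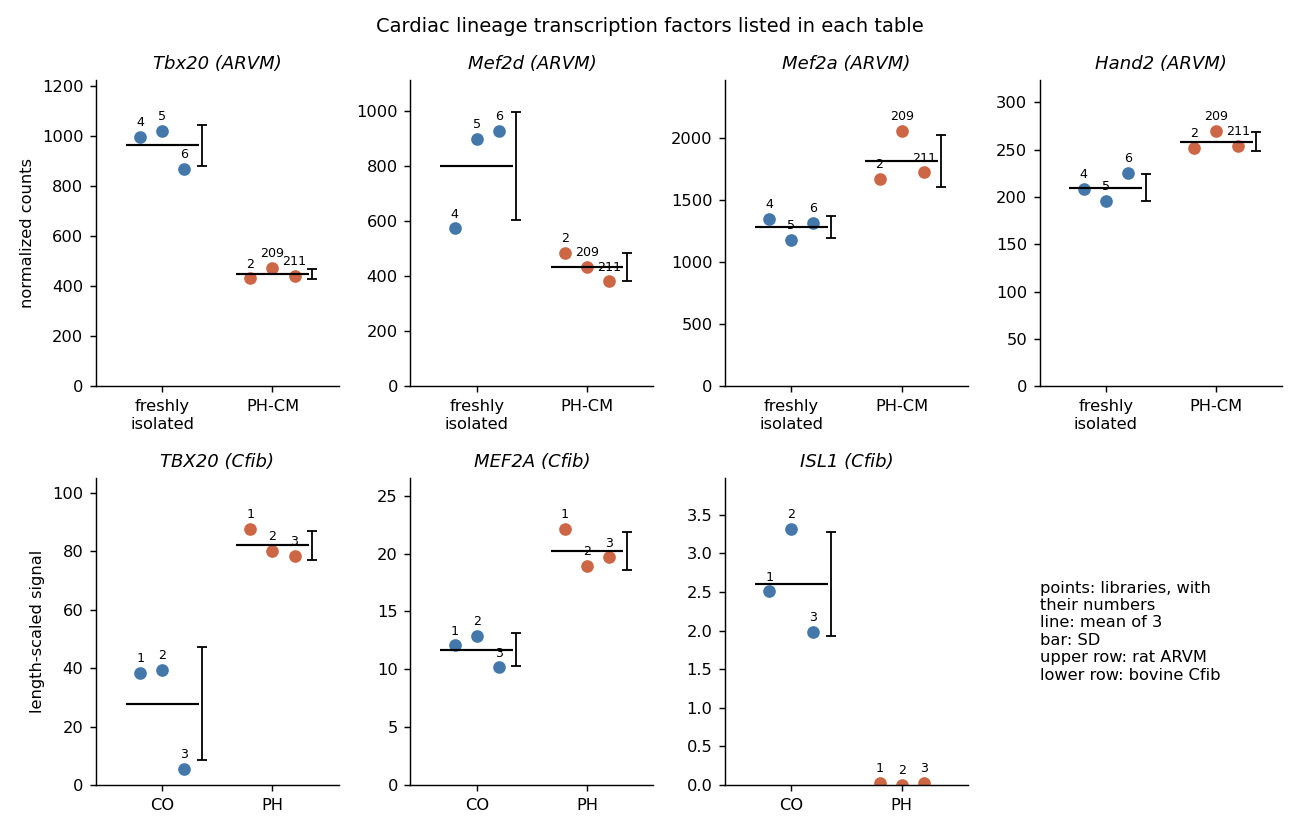
Values of each listed member by library, as normalized counts in ARVM (upper row, freshly isolated against PH-CM) and as length-scaled signal in Cfib (lower row, CO against PH). Points are libraries with their numbers, lines are means of 3 and bars are SD, left out for ISL1 in PH, where 1 library is listed at 0; the groups do not overlap in any panel, Mef2d of freshly isolated library con4 (573) and TBX20 of CO library 3 (5.49) stand below the rest of their groups.

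The composition of the RNA moved with these changes. In PH-CM all 9 listed of 10 cardiomyocyte markers fell (Ttn was not listed), with a summed level of 959351 to 998386 normalized counts in freshly isolated ARVM and 88605 to 104231 in PH-CM, and none at 0 in every library of a group. All 10 fibroblast markers rose, from sums of 4290 to 5322 to sums of 99941 to 146647. Of 10 smooth muscle and pericyte markers 8 rose and 2 fell, and the sums went from 4484–5246 to 33280–52051. All 9 listed of 10 macrophage markers rose, from 238–368 to 7502–11202, whereas 9 of 10 endothelial markers fell and 1 rose, with sums of 11105 to 13045 before and 4587 to 5360 after. The 4 listed of 7 erythroid markers fell, and Hba1, Hbb and Hbb-b1 were at 0 in PH-CM. The part of these shifts in the changes of the members was not tested, and fewer cells of a type and less RNA per cell cannot be told apart in such libraries. Against the 9 cardiomyocyte markers, Tbx20 and Mef2d each fell less than 8 of them, while Mef2a and Hand2 were higher in PH-CM.

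Among 35 partner and neighbour factors of the cardiac network, 9 were listed in ARVM and all 9 were called, 3 higher and 6 lower. Of all listed genes 97.6% were called, 53.9% higher and 43.7% lower, so the count called says nothing particular to this list. Their median log2 fold change was −0.81, beside 0.37 over all listed genes. Tbx18, a T-box factor of the epicardium and the sinus node, rose from 24.1 ± 11.6 to 345 ± 104 normalized counts (log2 fold change 3.84 ± 0.40, SE). Nfatc4, a calcineurin-dependent factor, rose by 2.18 ± 0.25 and Meis1, a homeodomain factor linked to cell cycle arrest of postnatal cardiomyocytes, rose by 1.13 ± 0.10. Tbx3, a repressor of the working myocardial program in the conduction system, went from 96.5 ± 20.6 to 15.6 ± 9.88 (log2 fold change −2.81 ± 0.58, limma adjusted p = 0.00222). Hey2, a ventricular Notch-related repressor, fell from 454 ± 56.6 to 122 ± 20.7. The sarcomere-associated methyltransferase Smyd1 (1567 ± 84.0 to 581 ± 106) and Smarcd3 (930 ± 79.4 to 436 ± 88.7), the cardiac subunit of the BAF chromatin remodelling complex, fell as well. The coactivator Myocd, the MADS-box factor Srf on which it acts and the sinus node factor Shox2 were not listed in either table.

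Activity of MEF2 proteins is held down by class IIa histone deacetylases and released by kinases that export them, and 10 of 21 genes of this control were listed in ARVM. All 10 were called, 2 higher and 8 lower, beside 97.6% of all listed genes, 53.9% higher and 43.7% lower. Their median was −0.79 on the log2 scale. The deacetylases Hdac5 and Hdac9 fell by 1.09 ± 0.14 and 1.31 ± 0.24 on the log2 scale (SE). Hdac5 went from 2433 ± 481 to 1128 ± 95.4 normalized counts (SD). The kinases Sik1, which fell by 1.02 ± 0.18, and Prkd2, which fell by 0.99 ± 0.15, act on these deacetylases. Cabin1, a corepressor of MEF2 and inhibitor of calcineurin, rose from 224 ± 36.7 to 443 ± 12.4, and Map2k5, which acts upstream of the MEF2-activating kinase ERK5, was called at 207 ± 46.8 to 297 ± 21.2. The call of Map2k5 was lost without any of 4 libraries (freshly isolated con4 and con5, PH-CM ha2 and ha211), with adjusted p between 0.0515 and 0.0780, and without PH-CM library ha211 the number of regulators called dropped to 7.

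Of 38 genes known as targets of the network 33 were listed in ARVM, and all 33 were called, 29 lower and 4 higher. Of all listed genes 97.6% were called, 43.7% lower and 53.9% higher. Of the listed targets, Myh6, Tnnt2, Tnni3, Ryr2, Myl2 and Pln are also cardiomyocyte markers, so the fall of this list in part repeats that of the markers. Ttn, in both lists, was not listed in ARVM. The median log2 fold change of the 33 listed targets was −2.38, beside −0.28 for the 4 listed members. A promoter run was held for 33 of the 38 target genes, which are not the same 33 as those listed in ARVM. Of the 33 with a run, 6 (18.2%) held a match to the MEF2 consensus, beside 2.96% of all promoters, and 7 (21.2%) an AGATAA match, beside 10.3%. Among genes with a match, Ttn, Xirp1 and Popdc2 were not listed in ARVM, Gja1 rose and the others fell. A gene counted here if any of its promoters matched, whereas the shares of all promoters count each promoter singly. The list was written as known targets, so these shares are a description and their difference was not tested. Of 21 partner factors with a run 0 held either match, and of the 21 MEF2 regulators 1 held each. Myoglobin (Mb, −6.62 ± 0.15), the muscle phosphoglycerate mutase Pgam2 (−6.22 ± 0.13), skeletal α-actin (Acta1, −5.67 ± 0.19) and the adult α-myosin heavy chain Myh6 (−5.58 ± 0.10) had the lowest log2 fold changes of this list (SE). Myh6 measured 329065 ± 12222 normalized counts in freshly isolated ARVM and 6909 ± 623 in PH-CM (SD). Myh7, the β-myosin heavy chain, rose from 42441 ± 2958 to 59891 ± 7213 (limma adjusted p = 0.00411). The connexins Gja1 (1.11 ± 0.06) and Gja5 (1.04 ± 0.22) and the muscarinic receptor Chrm2 (0.59 ± 0.14) were the other 3 called higher. The natriuretic peptides fell, Nppb from 8710 ± 229 to 5178 ± 728 and Nppa from 7346 ± 324 to 5392 ± 1170. The call of Nppa was lost in the test on unlogged values with a variance per group, at an adjusted p of 0.0933.

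Of 14 pacemaker genes 6 were listed in ARVM and all 6 were called, 3 in each direction, with a median of −0.14. Of all listed genes 97.6% were called. Beside Tbx18 and Tbx3, the T-type calcium channel gene Cacna1g rose from 68.5 ± 16.4 to 177 ± 39.2 and the ligand Bmp4 rose from 91.8 ± 16.9 to 215 ± 30.6. The pacemaker channel Hcn2 fell by 1.51 ± 0.26 on the log2 scale (SE), and the inward rectifier Kcnj3 fell from 518 ± 58.2 to 182 ± 18.8. Hcn4, the main pacemaker channel of the sinus node, was not listed. The call of Hcn2 was lost in the test on unlogged values with a variance per group, at an adjusted p of 0.0891.

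**Figure D2:**
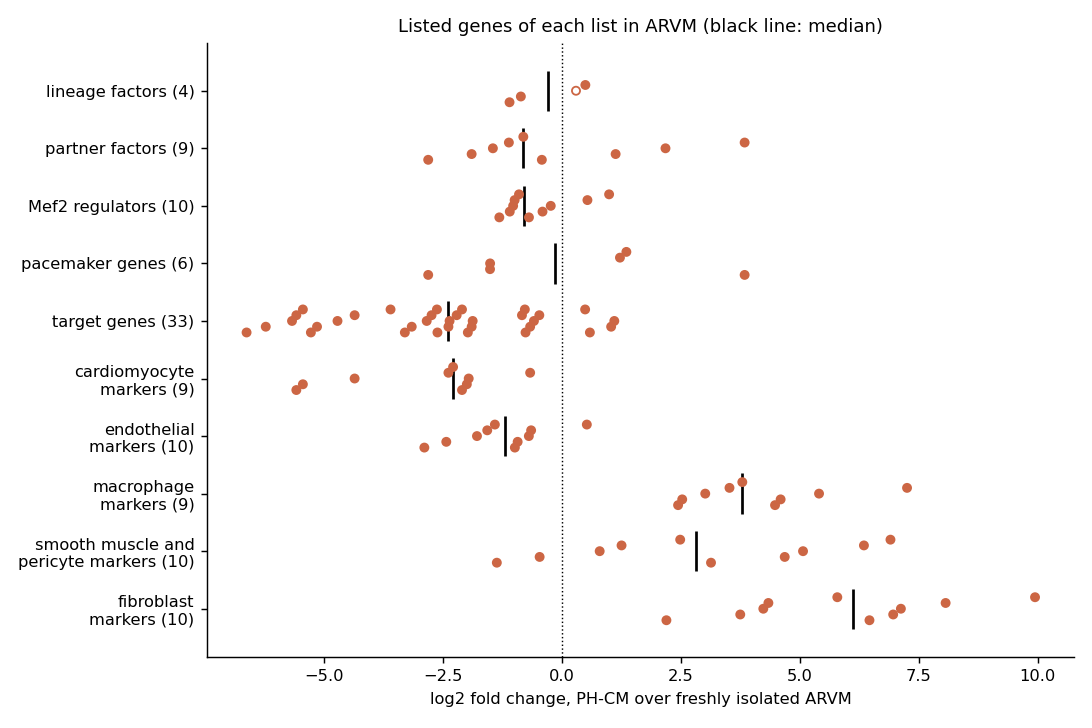
Log2 fold changes of PH-CM over freshly isolated ARVM for the listed genes of each list except the erythroid markers, which are not shown, with the number listed in brackets; filled points passed the limma test, the open point is Hand2, and black lines are medians. The 4 lineage factors lie between −1.10 and 0.50, the target genes reach down to −6.62 with a median of −2.38, and the fibroblast markers have a median of 6.13.

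In Cfib, where values are scaled by gene length and library, TBX20 and MEF2A were higher in PH than in CO and ISL1 was lower. The unit of this signal was not settled and the depth of these libraries is unknown. All 3 listed members were called, 2 higher and 1 lower in PH. Among all listed Cfib genes 97.5% were called, 58.2% higher and 39.4% lower, and in 100% the groups did not overlap, so this count too says nothing particular to the members. Rescaling by the median of ratios moved the median of all listed genes by −0.27 on the log2 scale and changed the called genes from 1230 higher and 833 lower to 840 higher and 869 lower. The log2 fold changes of the members kept their direction on that scale, at 1.65 for TBX20, 0.47 for MEF2A and −1.89 for ISL1. No cardiomyocyte marker was listed in Cfib. The 3 listed of 10 fibroblast markers were all higher in PH, with sums of 1885 to 2547 in CO and 6044 to 6351 in PH. Of 10 smooth muscle and pericyte markers 7 were listed, 6 higher and 1 lower (sums 122.6–158.0 and 264–272). Of 10 macrophage markers 4 were listed, 3 higher and 1 lower (sums 7.76–11.03 and 9.47–10.1), with C1QA and C1QB at 0 in CO, and the endothelial marker ESAM was lower in PH (5.58–7.54 and 2.03–2.94). The part of these shifts in the changes of the members was not tested.

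TBX20 had the highest level of the 3 members. It measured 38.3, 39.5 and 5.49 in CO and 87.5, 80.2 and 78.3 in PH. All PH libraries were above all CO libraries, and CO library 3 was 6.99 times below the lower of the other CO libraries. The means were 27.8 ± 19.3 and 82.0 ± 4.86 (SD, n = 3 each). The log2 fold change was 1.93 (SE 0.69, 95% interval 0.27 to 3.59, limma adjusted p = 0.0303). Without CO library 3 it was 1.06, with an adjusted p of 8.70e-06. CO library 3 stood at least 4-fold below both other CO libraries in 40 of 2115 genes. In 11 of these, TBX20 included, it stood at least as far below as in TBX20. Neither CO library 1 nor 2 stood 4-fold below both others in any gene counted. Genes at 0 in the library set against the others were not counted. The call of TBX20 was lost on the median of ratios (adjusted p = 0.0597) and without PH library 1, 2 or 3 (0.0665 to 0.0766).

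MEF2A was the steadier of the members that rose. It measured 12.1, 12.9 and 10.2 in CO and 22.1, 18.9 and 19.7 in PH. The lowest PH library was 1.47 times the highest CO library. The means were 11.7 ± 1.40 and 20.2 ± 1.65 (SD, n = 3 each), a 1.73-fold rise with a log2 fold change of 0.74 (SE 0.11, 95% interval 0.49 to 0.999, limma adjusted p = 0.000722). On the median of ratios the call held at an adjusted p of 0.00486.

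ISL1 was detected at a low level in CO and was close to or at 0 in PH. It measured 2.51, 3.31 and 1.98 in CO. In PH it measured 0.0273 in library 1 and 0.0278 in library 3 and was listed at 0 in library 2. Every CO library was therefore well above every PH library. The authors considered genes above a minimum expression in any condition, and ISL1, close to or at 0 in PH, could pass only through CO. The test of its change is thus no separate support. The log2 fold change on the log2(value + 1) scale was −1.80 (SE 0.14, 95% interval −2.14 to −1.47, limma adjusted p = 5.40e-05). This scale understates the change of a gene so low, and with a pseudocount of 0.1 the log2 fold change was −4.49. By its mean over the CO and PH libraries together, ISL1 ranked below most of the table, since 7.19% of listed genes had a lower mean.

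The order of levels in Cfib was TBX20, MEF2A and ISL1 in every library but CO library 3, in which MEF2A (10.2) exceeded TBX20 (5.49). In CO the ranges of TBX20 and MEF2A overlapped through that library, and in PH they were clear of each other. Against the table as a whole, the changes of TBX20 and ISL1 were larger in size than those of 89.3% and 87.6% of listed genes, and that of MEF2A was larger than 52.0%.

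**Figure D3:**
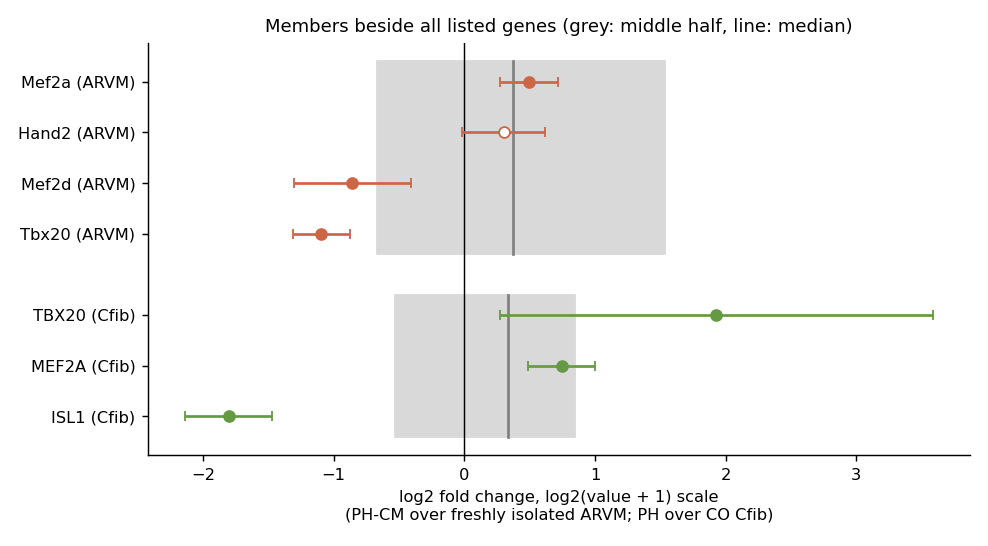
Log2 fold changes of the members with 95% intervals, PH-CM over freshly isolated ARVM and PH over CO Cfib, on the log2(value + 1) scale; filled points passed the limma test, grey bands are the interquartile range of all listed genes of the table and grey lines their medians (0.37 and 0.33). Tbx20 lies at −1.10 in ARVM and at 1.93 in Cfib, with a wide interval of 0.27 to 3.59, and Hand2 is the open point.

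Few genes of the network around the members were listed in Cfib. Of 35 partner factors 6 were listed and called, 5 higher and 1 lower, beside 97.5% of all listed Cfib genes, 58.2% higher and 39.4% lower. Their median was 0.44 on the log2 scale, beside 0.33 over all listed genes. GATA5, a GATA factor of the endocardium and epicardium, was 13.4-fold higher in PH, at 0.743 ± 0.105 in CO and 9.95 ± 1.08 in PH. Its log2 fold change was 2.65 ± 0.10 (SE, limma adjusted p = 4.59e-06). GATA5 was low in CO and could be listed through PH alone, so the test of its change is no separate support. CITED2, a coactivator that works with CBP and p300, rose from 60.0 ± 5.59 to 98.7 ± 5.31. NFATC4 fell from 54.7 ± 5.87 to 32.2 ± 0.567. MEIS1 (24.1 ± 4.15 and 33.9 ± 1.74) and SMARCD3 (19.9 ± 2.91 and 26.5 ± 2.05) were called higher, but not on the median of ratios, where the adjusted p was 0.129 and 0.367. TBX2, named here because its call was lost on that scale too (adjusted p = 0.253), was the other partner factor called higher, so that 2 higher and 1 lower were left. The deacetylase HDAC7 was the 1 listed of 21 MEF2 regulators, called higher at 26.8 ± 1.002 and 36.7 ± 2.28, and on the median of ratios its adjusted p was 0.0591.

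Of 38 target genes 4 were listed in Cfib, 3 higher and 1 lower. ANKRD1, a stress-responsive nuclear cofactor, rose from 111 ± 32.9 to 624 ± 32.8 and the potassium channel KCNJ2 rose from 1.32 ± 0.397 to 2.89 ± 0.0753. The sodium-calcium exchanger SLC8A1 rose from 2.001 ± 1.39 to 7.38 ± 0.283, while the connexin GJA5 fell from 22.3 ± 6.92 to 4.47 ± 0.285. Of 14 pacemaker genes CACNA1G was the 1 listed, and it rose from 0.869 ± 0.422 to 2.96 ± 0.132. CACNA1G too was low in CO and could be listed through PH, so its call is no separate support. Together 12 genes of the 4 lists were called in Cfib, and 8 on the median of ratios. Of all 2115 listed genes 2063 were called, and 1709 on the median of ratios.

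Members listed in both tables can be set side by side, since the ARVM and Cfib comparisons share no library. Mef2a was higher in PH-CM ARVM (0.50 ± 0.10) and in PH Cfib (0.74 ± 0.11) on the log2 scale (SE). Tbx20 was lower in PH-CM ARVM (−1.10 ± 0.09) and higher in PH Cfib (1.93 ± 0.69). Over the 1178 genes listed in both tables, which are 16.7% of the ARVM table and 55.7% of the Cfib table, 656 moved the same way. Of the partner, target and pacemaker genes, Meis1 and Cacna1g moved the same way. Gata5, Smarcd3, Nfatc4, Gja5, Slc8a1 and Ankrd1 moved the opposite way. Among cell type markers, Col1a2, Postn, Tcf21, Esam, Acta2, Myh11, Smtn, Lmod1, Cd68, C1qa and C1qb moved the same way. The markers Cnn1, Rgs5, Cspg4 and Cd14 moved the opposite way. The ARVM values of Gata5, Slc8a1 and Ankrd1 are given because the rule had named them in Cfib. Ankrd1 fell by 1.87 ± 0.19 and Slc8a1 by 0.77 ± 0.08 in PH-CM ARVM. Gata5 went from 334 ± 49.4 to 248 ± 13.7 normalized counts, with a log2 fold change of −0.42 ± 0.15, and its call was lost without any of 4 libraries (freshly isolated con5 and con6, PH-CM ha2 and ha211), with adjusted p between 0.0646 and 0.0944. A difference between ARVM and Cfib in these changes was not tested, since species, treatment, unit and gene selection all differ.

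**Figure D4:**
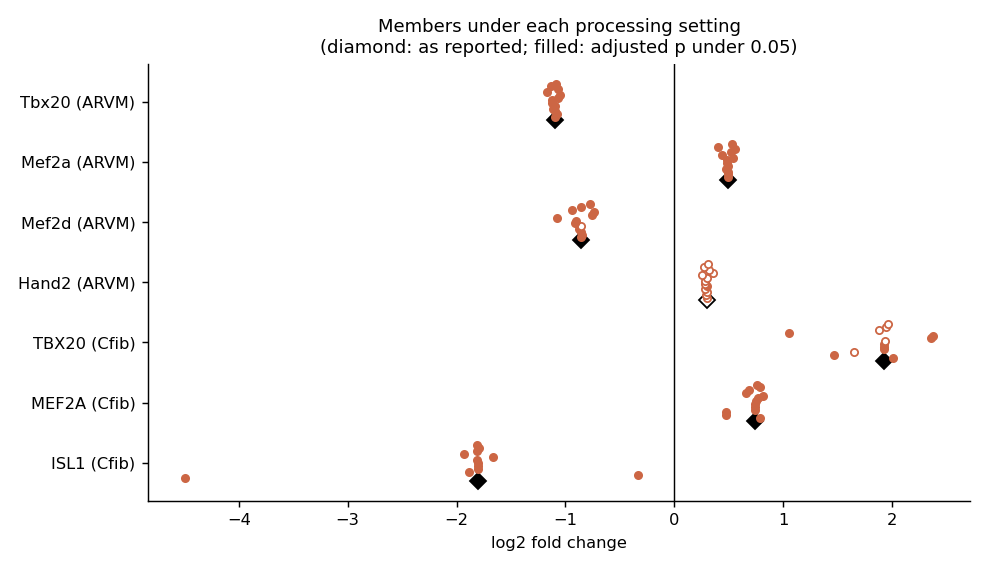
Log2 fold changes of each member as reported (black diamonds) and under the alternative processing settings or with 1 library left out (circles), filled where the adjusted p was below the threshold. The minimum log2 fold change of 1 is not shown. Each member stays on its side of 0, Tbx20 in ARVM spans −1.17 to −1.05, TBX20 in Cfib spans 1.06 to 2.38 with open circles among them, and ISL1 spans −4.49 to −0.33 with the pseudocount.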

How the data were processed

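RNA-seq of 12 libraries in 4 groups of 3 was analysed. The authors depleted ribosomal RNA, aligned rat reads to rn6 and bovine reads to bosTau8 with HISAT2 and StringTie and normalized with DESeq2. They considered genes above a minimum expression in any condition and kept those selected by a p-value under 0.05. A gene low in a group, such as ISL1, GATA5 or CACNA1G in Cfib, could then be listed through the other group. For ARVM the authors deposited a signal per gene, in which each read count is scaled by the size factor of its library. In each library 100% of them were whole multiples of its step within 0.01 reads, which gave totals of 12122463 to 18842171 reads over listed genes. For Cfib they deposited a signal of unsettled unit that takes account of gene length and library, with no depth given in the sources used here. Each adjustment for multiple testing rests on selected genes.

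The moderated test of limma 3.58.1 (R 4.3.3), with a mean-variance trend, was applied to log2(value + 1), and Benjamini-Hochberg adjustment ran within each table. On recovered ARVM reads edgeR 4.0.16 and DESeq2 1.42.0 were run as alternatives, with edgeR calling 96.6% of listed genes. Other alternatives were pseudocounts of 0.1 and 10, minimum means of 50 (ARVM) and 5 (Cfib), the median of ratios, a test with a variance per group, a minimum log2 fold change of 1, a replicate block and averaged PH libraries (Cfib), and each library left out in turn. The test with a variance per group was run on values that were not log-transformed. The limma, edgeR and DESeq2 fits, the test with a variance per group and the replicate block were tried on simulated data, and the other alternatives were not. The simulated data held no difference between replicate numbers, so the block itself was not tried. No set recovery of changed genes was asked of the test with a variance per group. Members and gene lists were chosen with earlier results of these data known. The lists (partner factors, MEF2 regulators, targets, pacemaker genes and cell type markers) came from general knowledge. Named were all 10 members, up to 4 called genes with the largest rise and 4 with the largest fall per list and table with a mean of at least 10 (ARVM) or 1 (Cfib) in the higher group, and Shox2, Tbx3, Hcn4, Myocd, Srf, Nppa, Nppb, Myh6 and Myh7. The ISL1 values in Cfib had been seen when this rule was set. Libraries of a group correlated at 0.974 to 0.978 (freshly isolated), 0.983 to 0.989 (PH-CM), 0.976 to 0.993 (CO) and 0.997 to 0.998 (PH).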

Additional observations from a re-analysis of the deposited data

How the results depend on the processing

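Every member kept its direction under each alternative run. Tbx20 in ARVM kept its call under all 14 alternatives, and Mef2a and MEF2A kept theirs except where a log2 fold change of at least 1 was asked for. Without 1 library the log2 fold change of Tbx20 in ARVM ranged from −1.17 to −1.05, of Mef2a from 0.40 to 0.56, of Mef2d from −1.08 to −0.74, of Hand2 from 0.25 to 0.35, of TBX20 in Cfib from 1.06 to 2.38, of MEF2A from 0.65 to 0.81 and of ISL1 from −1.93 to −1.67. A minimum log2 fold change of 1 left 1 member, 3405 genes and 3 MEF2 regulators called in ARVM, and 720 genes and 5 list genes in Cfib. Averaging the PH libraries left that arm as 1 sample with no spread of its own, assumed to vary like CO, although the libraries are described as separate animals. It gave 1038 genes and 7 list genes called in Cfib, and nothing is drawn from these counts. The median of ratios left 8 of 12 list genes called in Cfib. A minimum mean of 5 also gave 8, because TBX2, KCNJ2, SLC8A1 and CACNA1G lay below it and were not tested. A minimum mean of 5 left out ISL1, and a minimum mean of 50 gave Hand2 an adjusted p of 0.0502. The correlations of equally numbered Cfib libraries were 0.258, 0.0312 and 0.259, and CO library 2 correlated best with PH library 1, so the numbers were not taken to pair the libraries. With the replicate block 1983 genes and 3 members were called in Cfib. Depth was not tested as a limit of the ARVM calls, and no limit can be set for Cfib, where depth is unknown.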
